A study of Homo sapiens with 6 samples.

Results

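The genes described here are 7 members of the SIN3 histone deacetylase complexes: PHF12, GATAD1, SIN3A, SIN3B, SAP30, HDAC1 and HDAC2. They were taken by gene name from a pooled CRISPR knockout screen, where they hold 70 guides (10 for each gene) of the 71526 guides assigned to 7093 genes. PHF12 was chosen by its difference between the 2 cell lines and GATAD1 was chosen by its change in parental cells, so those values are given as a description, with no test. The other 5 were listed as subunits of the same complexes. This was done with earlier results of these data known, so their tests are not independent of the choice.

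The screen used HAP1, a leukaemia-derived human line with mostly a single copy of each chromosome, to find genes whose loss affects SETD2-mutant cells differently from parental cells. There were 2 SETD2-mutant samples, 2 parental samples and 2 samples of the guide library. Each line was transduced at a multiplicity of infection of 0.7, then split into its replicates and kept under puromycin for 12 doublings. The 2 cell samples of a line therefore share 1 transduction. The test of a guide measures only the spread after that split. A gene's p-value from the ranks of its guides measures how far they rank together, not the spread between samples or transductions. The mutant line is labelled SETD2-mutant with no allele given, and whether it is 1 clone was not stated, so a difference between the lines cannot be told apart from a difference between these 2 cell stocks. How the library samples were taken was not stated either.

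SIN3A and SIN3B are scaffold proteins with no enzyme activity of their own that bring the deacetylases HDAC1 and HDAC2 to chromatin, where these remove acetyl groups from histone tails. SIN3A assembles with SAP30, SUDS3, SAP130 and the ING and ARID4 proteins, mostly at promoters. A form built on SIN3B holds PHF12 and MORF4L1, and GATAD1 and KDM5A have been found with it. It is regarded as the counterpart of yeast Rpd3S, which recognises methylated H3K36 along transcribed genes, and SETD2 is the enzyme that places trimethylation on H3K36.

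Depth, as total counts, was 25082426 and 33878004 for SETD2-mutant cells, 38197301 and 34003792 for parental cells, and 38428425 and 34679351 for the library. The mean change of a gene's guides on the log2 scale, with the standard error (SE) over its guides, is used as the gene's effect. A gene was called depleted or enriched when the ranks of its guides in an edgeR quasi-likelihood fit, combined by robust rank aggregation, gave a Benjamini-Hochberg adjusted p below 0.05 over 7090 genes. Between SETD2-mutant and parental cells, 1.28% of genes were called depleted and 1.03% enriched. Against the library, 9.04% were depleted and 1.10% enriched in SETD2-mutant cells, and 9.90% were depleted and 1.10% enriched in parental cells. Guides for 53 cytosolic ribosomal protein genes, which serve as a gauge of dropout, had a median change of −4.08 in SETD2-mutant cells and −3.53 in parental cells. The 100 guides labelled dummyguide, whose target was not stated, had median changes of 0.87 and 0.92 in the SETD2-mutant samples and 0.65 and 0.74 in the parental samples. Scaling the samples on those guides moved the median of all genes by −0.15 between the lines, −0.92 in SETD2-mutant cells and −0.78 in parental cells. Guides for SETD2 itself stood at −0.61 in SETD2-mutant cells (adjusted p = 0.739) and fell to −1.12 in parental cells (adjusted p = 0.000313). Tested directly between the lines by rank aggregation, SETD2 stood at 0.50 (adjusted p = 0.00726).

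SIN3B, PHF12 and GATAD1 had the same direction in 2 comparisons, though PHF12 and GATAD1 were each listed for a value in these. On average their guides were more abundant in parental cells than in the library, and less abundant in SETD2-mutant than in parental cells. SIN3B is the member of these for which both comparisons could be tested, and it passed in both. Both use the same parental samples, so these passes are not separate results. In SETD2-mutant cells against the library the genes differed, at 0.18 for SIN3B, −0.70 for PHF12 and 0.53 for GATAD1. SIN3A fell strongly in both lines and did not pass the test between them. SAP30, HDAC1 and HDAC2 passed the rank aggregation test in none of the 3 comparisons. Of the 5 members tested between the lines, 1 was depleted and 0 were enriched by edgeR and rank aggregation (1.28% and 1.03% of all genes). At an unadjusted p below 0.05, 2 were depleted and 0 enriched, and by limma on gene means 3 and 2. Against the library, 1 of 6 tested was depleted and 0 enriched in SETD2-mutant cells (9.04% and 1.10% of all genes). There, 1 was depleted and 1 enriched at an unadjusted p below 0.05, and 4 and 2 by limma. In parental cells, 1 of 5 tested was depleted and 1 enriched (9.90% and 1.10% of all genes). The comparisons against the library share the 2 library samples.

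**Figure D1:**
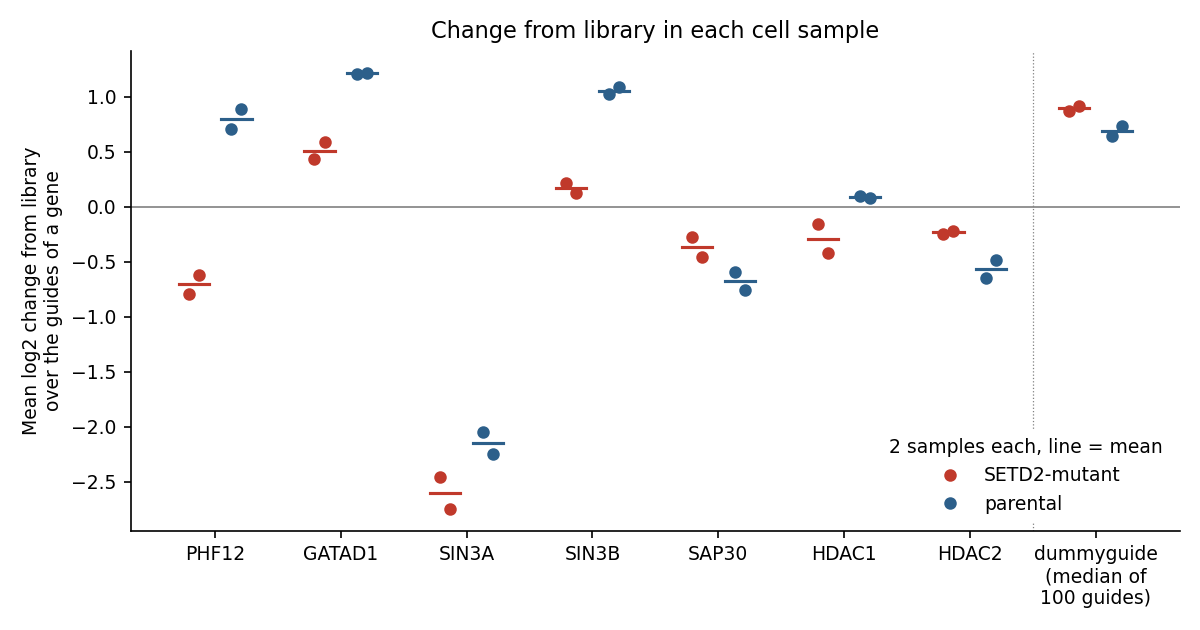
Mean log2 change from the library over the 10 guides of each gene (vertical axis) in each of the 2 SETD2-mutant samples (red) and 2 parental samples (blue), with the median of the 100 dummyguide guides at the right; lines mark the mean of the samples. PHF12 lies at −0.79 and −0.62 in SETD2-mutant samples and at 0.71 and 0.89 in parental samples, while SIN3A lies below −2 in all 4.

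SIN3B, the scaffold of the complex form that holds PHF12, is on chromosome 19 (GRCh38.p14, positions 16829398 to 16880349). Its guides averaged 19.8 and 18.0 CPM (counts scaled to a common sample total) in SETD2-mutant cells, 34.5 and 36.2 in parental cells and 16.1 and 16.4 in the library. The parental samples lay well above both other groups, and the SETD2-mutant samples lay slightly above the library. Between SETD2-mutant and parental cells, SIN3B fell by 0.89 on the log2 scale (SE 0.14 over 10 guides, adjusted p = 9.33e-05), and its unadjusted p of 2.5e-07 was the smallest that the random draws could give. The call held in all 18 alternative settings, with changes between −1.04 and −0.85. In the median over guides it could not change, since that setting alters only the effect.

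Nearly all SIN3B guides had this direction. In 9 of the 10, both SETD2-mutant samples lay below both parental samples in CPM, where 29.8% of all 71470 guides did so. The guide with the lowest value between the lines, −1.31, had 388 and 390 counts in SETD2-mutant cells, 1272 and 1108 in parental cells, and 362 and 358 in the library. The exception, at 0.15, had 496 and 803 counts in SETD2-mutant cells, 796 and 609 in parental cells, and 387 and 357 in the library.

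In parental cells SIN3B rose by 1.07 against the library (SE 0.16, 9 of 10 guides above 0, adjusted p = 0.000148), the eighth highest value of the 7090 genes. Its change in SETD2-mutant cells was 0.18 (SE 0.21, 7 of 10 guides above 0, adjusted p = 1). With samples scaled on the dummyguide guides, the SIN3B change was −0.75 in SETD2-mutant cells and 0.29 in parental cells, and the difference between the lines was −1.04. The 20 nearest tested genes on chromosome 19 had a median of 0.08 between the lines and −0.02 in parental cells.

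PHF12 is a PHD finger protein that links the SIN3 scaffold to chromatin, and lies on chromosome 17 (28905250 to 28951518). Its guides averaged 13.2 and 14.8 CPM in SETD2-mutant cells, 32.1 and 34.8 in parental cells and 16.9 and 17.1 in the library. SETD2-mutant samples lay below the library and parental samples lay above it. The change between the lines was −1.51 (SE 0.28), the 40th lowest of 7090 genes. The change against the library was −0.70 in SETD2-mutant cells (SE 0.34) and 0.81 in parental cells (SE 0.16).

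Guides for PHF12 differed widely from each other, with an SD of 0.89 over guides between the lines, against 0.44 for SIN3B and 0.43 for GATAD1. The same SD was 0.84 for SIN3A, 0.71 for HDAC1, 0.40 for SAP30 and 0.34 for HDAC2. All 10 PHF12 guides had both SETD2-mutant samples below both parental samples, where 29.8% of all guides did so. Their changes ran from −3.66 to −0.57. The guide at the low end had 45 and 77 counts in SETD2-mutant cells, 949 and 899 in parental cells, and 523 and 450 in the library. The guide at the other end had 656 and 834 counts in SETD2-mutant cells, 1375 and 1321 in parental cells, and 777 and 677 in the library. Against the library, 6 of 10 PHF12 guides were below 0 in SETD2-mutant cells (range −2.68 to 0.37), while all 10 were above 0 in parental cells (range 0.01 to 1.59). The low mean in SETD2-mutant cells came mainly from 4 guides below −1, and the median over guides was −0.38.

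The level of PHF12 against the library also depended on the scaling. On the dummyguide guides it was −1.62 in SETD2-mutant cells and 0.04 in parental cells. Its 20 nearest genes on chromosome 17 had a median of −0.15 between the lines, −0.75 in SETD2-mutant cells and −0.53 in parental cells.

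**Figure D2:**
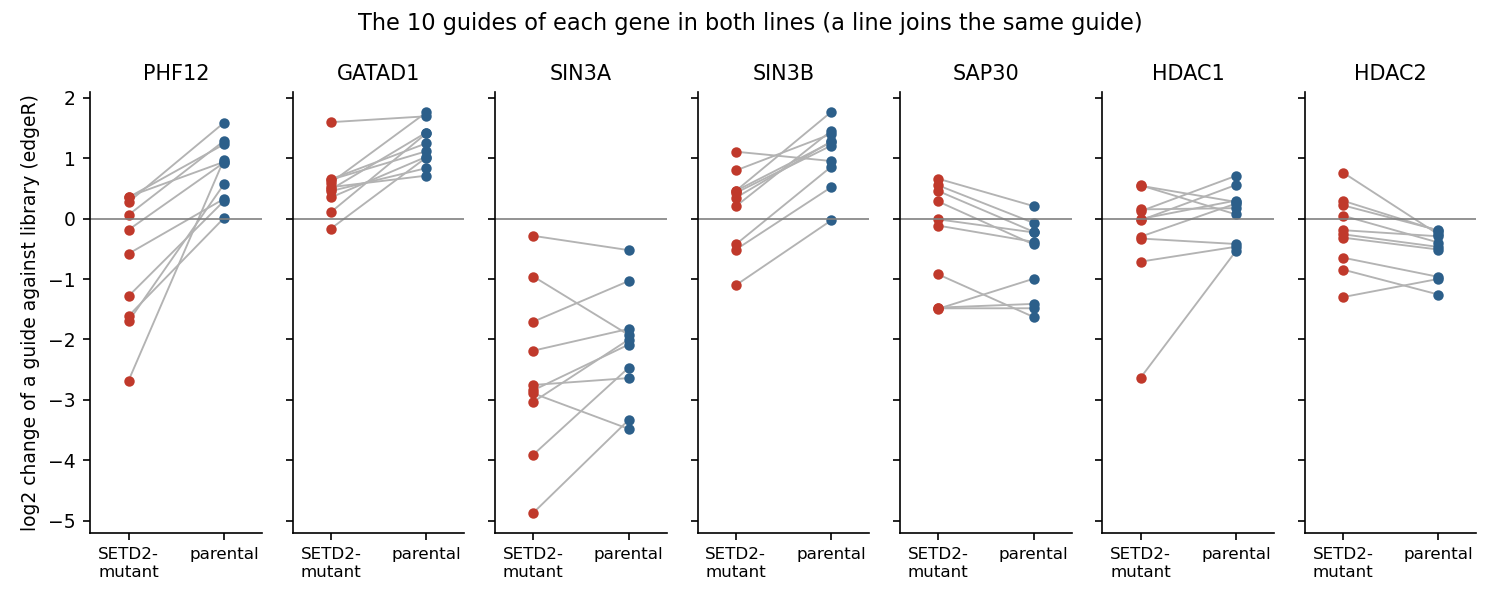
Log2 change of each guide against the library from the edgeR fit (vertical axis) in SETD2-mutant cells (red, left) and parental cells (blue, right), with a grey line joining the same guide. All 10 PHF12 and GATAD1 guides and 9 of 10 SIN3B guides lie lower in SETD2-mutant cells, and 9 of 10 HDAC2 guides lie higher.

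GATAD1, a GATA-type zinc finger protein found at H3K4 trimethylated promoters with the demethylase KDM5A, lies on chromosome 7 (92447482 to 92495769). Its guides averaged 20.7 and 23.7 CPM in SETD2-mutant cells, 38.2 and 37.5 in parental cells and 15.02 and 14.95 in the library. Both lines lay above the library, with parental cells highest. The change in parental cells was 1.22 (SE 0.11), the third highest of 7090 genes, with all 10 guides between 0.71 and 1.76. Between the lines it was −0.70 (SE 0.14, 10 of 10 guides below 0). In 7 of the 10 guides, both SETD2-mutant samples lay below both parental samples in CPM, where 29.8% of all guides did so.

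The tested comparison for GATAD1 was SETD2-mutant cells against the library, where its change was 0.53 (SE 0.14, 9 of 10 guides above 0, adjusted p = 0.269, unadjusted p = 0.0118). It did not pass, and on the dummyguide guides the value was −0.40 in SETD2-mutant cells and 0.45 in parental cells. One guide was nearly equal in the lines, with 846 and 1697 counts in SETD2-mutant cells, 1848 and 1382 in parental cells, and 543 and 481 in the library. The guide with the lowest value between the lines, −1.30, had 382 and 751 counts in SETD2-mutant cells, 1694 and 1612 in parental cells, and 697 and 589 in the library. The 20 nearest genes on chromosome 7 had medians of −0.05 between the lines and 0.01 in parental cells.

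SIN3A, the scaffold of the promoter-bound form, lies on chromosome 15 (75369379 to 75455815). Its guides averaged 3.90 and 3.55 CPM in SETD2-mutant cells, 4.86 and 4.43 in parental cells and 19.0 and 18.2 in the library. All 10 guides were below the library in both lines. SIN3A fell by 2.54 in SETD2-mutant cells (SE 0.42, adjusted p = 0.000351) and fell by 2.13 in parental cells (SE 0.29, adjusted p = 9.62e-05). The parental call was lost at a rank share limit of 0.1 (adjusted p = 0.0723).

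Between SETD2-mutant and parental cells the SIN3A change was −0.41 (SE 0.26, 7 of 10 guides below 0, adjusted p = 1). The 20 nearest genes on chromosome 15, part of which HAP1 is known to carry in an extra copy, had a median of −0.38 between the lines, −0.87 in SETD2-mutant cells and −0.50 in parental cells. With the SETD2-mutant changes rescaled so that ribosomal protein genes dropped out equally in both lines, the SIN3A change between them was −0.07. Guides for SIN3A ranged from −1.54 to 0.97 between the lines. The guide at the low end had 24 and 30 counts in SETD2-mutant cells, 100 and 91 in parental cells, and 1023 and 962 in the library.

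**Figure D3:**
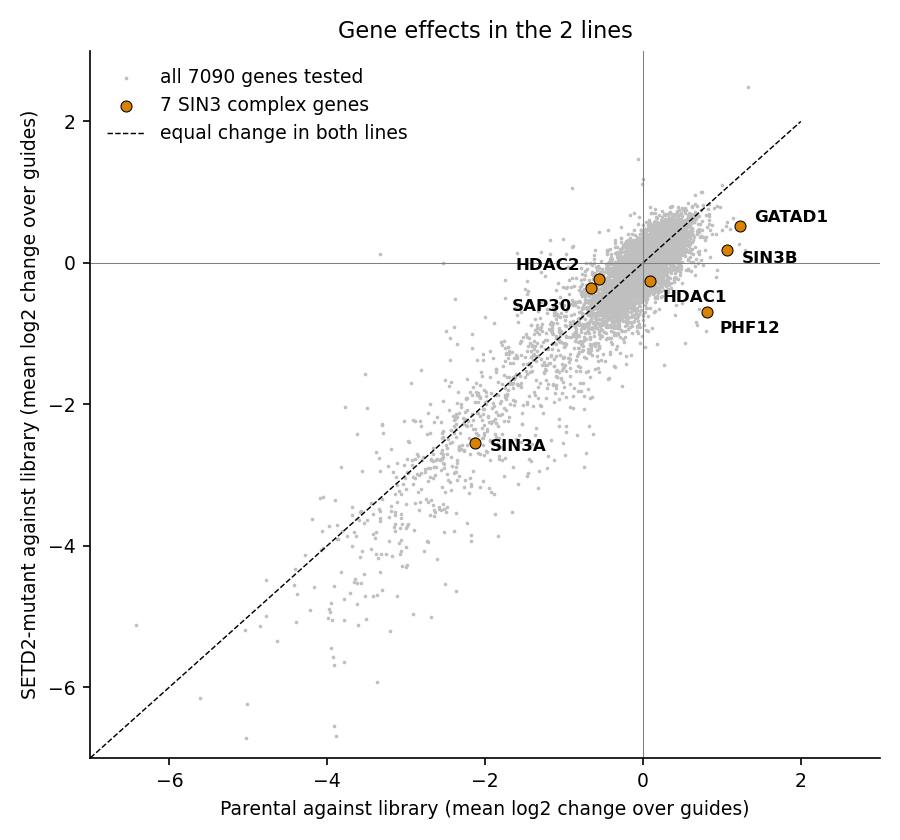
Mean log2 change over guides in SETD2-mutant cells (vertical axis) and parental cells (horizontal axis), both against the library, for all 7090 genes (grey) and the 7 SIN3 complex genes (orange); the dashed line marks equal change. SIN3B (0.18 in SETD2-mutant cells, 1.07 in parental cells), GATAD1 and PHF12 lie right of and below the line, and SIN3A lies at −2.54 and −2.13.

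SAP30, a small subunit that stabilises the SIN3A complex, lies on chromosome 4 (173370954 to 173377532). Its guides averaged 16.7 and 15.2 CPM in SETD2-mutant cells, 13.0 and 11.2 in parental cells and 18.0 and 17.8 in the library. The SETD2-mutant samples lay between the parental samples and the library. The change was 0.31 between the lines (SE 0.13, 7 of 10 guides above 0, adjusted p = 0.748). Against the library it was −0.35 in SETD2-mutant cells (SE 0.28, adjusted p = 1) and −0.66 in parental cells (SE 0.21, adjusted p = 0.777).

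HDAC1 and HDAC2, close paralogues, are the catalytic subunits. HDAC1, on chromosome 1 (32292083 to 32333626), averaged 18.4 and 17.8 CPM per guide in SETD2-mutant cells, 20.8 and 20.7 in parental cells and 18.1 and 18.3 in the library. The SETD2-mutant samples lay slightly below the parental samples. The change between the lines was −0.35 (SE 0.23, 7 of 10 guides below 0, adjusted p = 0.645, unadjusted p = 0.0447). One guide stood apart at −2.10, with 62 and 20 counts in SETD2-mutant cells, 233 and 221 in parental cells, and 351 and 329 in the library. The other 9 HDAC1 guides lay between −0.59 and 0.48. Against the library the HDAC1 change was −0.26 in SETD2-mutant cells (SE 0.29, adjusted p = 1) and 0.09 in parental cells (SE 0.14, adjusted p = 1). The parental value was −0.68 on the dummyguide guides.

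HDAC2, on chromosome 6 (113933028 to 113971148), averaged 11.8 and 12.6 CPM per guide in SETD2-mutant cells, 9.14 and 9.89 in parental cells and 14.2 and 14.0 in the library. Here the parental samples were lowest. The change was 0.33 between the lines (SE 0.11, 9 of 10 guides above 0, adjusted p = 0.979). It was −0.22 in SETD2-mutant cells (SE 0.19, adjusted p = 1) and −0.55 in parental cells (SE 0.12, 10 of 10 guides below 0, adjusted p = 1). The 20 nearest genes had median changes between the lines of 0.06 around SAP30, −0.17 around HDAC1 and −0.03 around HDAC2. The tests of SAP30, HDAC1 and HDAC2 did not pass, which does not show that their loss leaves both lines alike. When limma was run on gene means in place of the guide ranks, SIN3A, SAP30, HDAC1 and HDAC2 passed between the lines (adjusted p between 0.0111 and 0.0307), as did 1585 depleted and 910 enriched genes.

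Of the other SIN3 subunits, 15 of 18 listed were measured. Of these, 6 were depleted and 0 enriched in SETD2-mutant cells (1 enriched at an unadjusted p below 0.05, and 2 by limma), and 6 were depleted and 1 enriched in parental cells. The shares over all genes were 9.04% depleted and 1.10% enriched for SETD2-mutant cells, and 9.90% depleted and 1.10% enriched for parental cells. Their median changes were −0.35 in SETD2-mutant cells and −0.40 in parental cells, against −0.05 and −0.01 over all genes. Between the lines 1 was depleted and 0 enriched, where 1.28% of all genes were depleted and 1.03% enriched. At an unadjusted p below 0.05, 5 of these subunits were depleted and 3 enriched, and by limma 6 and 3. Their median between the lines was −0.01, against −0.04 over all genes.

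OGT, the transferase that adds N-acetylglucosamine to nuclear proteins, fell by 2.21 in SETD2-mutant cells (adjusted p = 0.00173) and fell by 2.38 in parental cells (adjusted p = 7.81e-06). The histone chaperone RBBP4, which is shared with NuRD and PRC2, fell by 3.16 in SETD2-mutant cells (adjusted p = 9.23e-06) and fell by 2.17 in parental cells (adjusted p = 7.81e-06). RBBP4 was the subunit called between the lines, at −0.98 (SE 0.66, adjusted p = 0.043). The RBBP4 call did not hold without SETD2-mutant replicate 1 (adjusted p = 0.449) or 2 (0.326), without parental replicate 1 (0.116), with the 2 lines fitted alone (0.202) or at equal ribosomal protein dropout (0.0829).

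Of the SIN3A-bound subunits outside the rule for named genes, chosen after their values were seen, SAP18, SAP130 and SUDS3 were depleted in both lines. SAP18 stood at −2.65 in SETD2-mutant cells (adjusted p = 0.0212) and −2.55 in parental cells (adjusted p = 0.000773). The call in SETD2-mutant cells was lost without SETD2-mutant replicate 1 (adjusted p = 0.0846) or 2 (0.131), and on the dummyguide guides (0.0568). SAP130 fell by 1.30 in SETD2-mutant cells (adjusted p = 0.00164) and fell by 1.37 in parental cells (adjusted p = 0.00103). SUDS3 fell by 1.60 in SETD2-mutant cells (adjusted p = 0.00325, and 0.125 without SETD2-mutant replicate 2) and fell by 1.62 in parental cells (adjusted p = 0.00519). BRMS1 was called in SETD2-mutant cells, at −1.15 (adjusted p = 0.00293, and 0.0888 without SETD2-mutant replicate 2), and ING2 in parental cells, at −0.88 (adjusted p = 0.00914). At a rank share limit of 0.1, the SETD2-mutant calls for SAP130 (adjusted p = 0.0693), SUDS3 (0.0895) and BRMS1 (0.0541) and the parental call for ING2 (0.192) were lost. On the dummyguide guides, the SETD2-mutant call for SUDS3 was lost too (0.179). Whether BRMS1 and ING2 differ between the lines was tested, and neither passed (adjusted p = 0.566 for BRMS1 and 1 for ING2).

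ARID4A, a chromatin-binding subunit, was the 1 enriched in parental cells. It stood at 0.32 in SETD2-mutant cells (adjusted p = 0.175) and rose by 0.78 in parental cells (adjusted p = 0.00751). The parental call was lost when SETD2-mutant replicate 1 (adjusted p = 0.07) or 2 (0.0668) was left out of the shared fit, or when the fit held parental and library samples alone (0.0658). Between the lines its value was −0.46 with 10 of 10 guides below 0 (adjusted p = 0.107). SAP25 stood at −0.37 between the lines (adjusted p = 0.15).

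**Figure D4:**
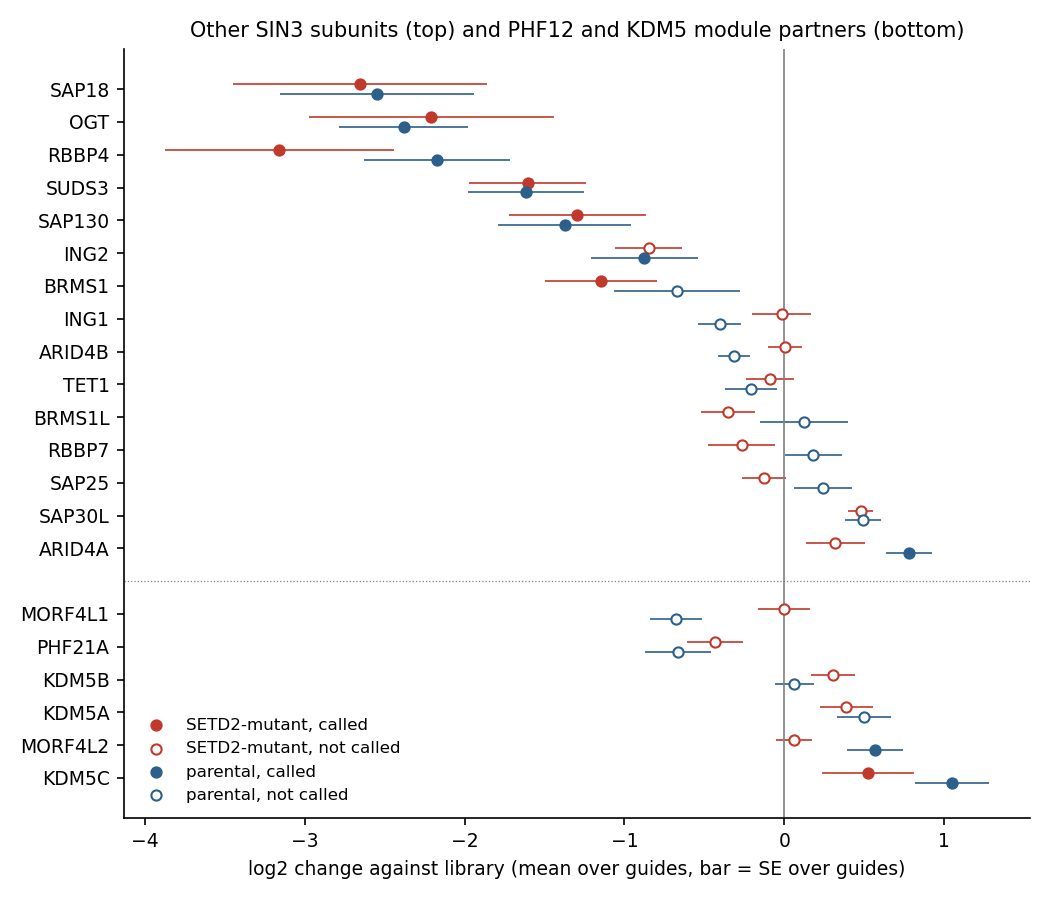
Mean log2 change against the library with the SE over guides (horizontal axis) of 15 other SIN3 subunits (top) and 6 PHF12 and KDM5 module partners (bottom), in SETD2-mutant cells (red, above) and parental cells (blue, below); filled points are called. SAP18, OGT, RBBP4, SUDS3 and SAP130 are filled on the left in both lines, and KDM5C is filled on the right in both.

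Among 6 measured of 8 listed partners of PHF12 and the KDM5 module, 1 was depleted and 1 enriched between SETD2-mutant and parental cells, where 1.28% and 1.03% of all genes were. Against the library 1 was enriched in SETD2-mutant cells and 2 in parental cells, where 1.10% of all genes were in each line. Rank aggregation called none depleted in SETD2-mutant cells (0 at an unadjusted p below 0.05, and 1 by limma) and none in parental cells (1 and 2). The median was 0.06 between the lines, 0.18 in SETD2-mutant cells and 0.28 in parental cells. KDM5C, an H3K4 demethylase related to KDM5A, was among the 5 genes nearest to GATAD1 in pattern. It rose by 0.52 in SETD2-mutant cells (adjusted p = 0.0153) and rose by 1.05 in parental cells (adjusted p = 0.000148). Between the lines KDM5C fell by 0.53 (SE 0.19, adjusted p = 0.0129). The KDM5C call did not hold without parental replicate 1 (adjusted p = 0.0855), SETD2-mutant replicate 1 (0.0922) or SETD2-mutant replicate 2 (0.0732). Its call in SETD2-mutant cells was lost without SETD2-mutant replicate 2 (0.101), and on the dummyguide guides the value there was −0.40.

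MORF4L1, the chromodomain protein that reads methylated H3K36 in the PHF12 complex, was the 1 enriched between the lines. Its guides stood at −0.00 in SETD2-mutant cells and −0.68 in parental cells (adjusted p = 0.133), and it rose by 0.68 between the lines (SE 0.14, 9 of 10 guides above 0, adjusted p = 0.0114). The call was lost without parental replicate 1 (adjusted p = 0.0978), parental replicate 2 (0.0678) or SETD2-mutant replicate 1 (0.0979), and at a rank share limit of 0.1 (0.178). Its relative MORF4L2 stood at −0.51 between the lines (adjusted p = 0.0855), at 0.06 in SETD2-mutant cells and at 0.57 in parental cells (adjusted p = 0.0491). The parental call for MORF4L2 was lost in 8 of 17 alternatives, among them without each library sample (adjusted p = 0.11 and 0.072) and each parental sample (0.249 and 0.0841). PHF21A, a PHD finger protein of the CoREST complex, stood at 0.23 between the lines (adjusted p = 1).

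Of 9 listed DNA-binding proteins (MAX, its dimer partners, REST and ZBTB16), some of which recruit SIN3, 5 were measured. Among these, MGA was depleted between the lines, where 1.28% of all genes were, with a median of 0.09 over the list. None was enriched by rank aggregation there, with 1 at an unadjusted p below 0.05 and 2 by limma. Against the library, 1 was depleted in SETD2-mutant cells, with a median of 0.41, and 1 was depleted and 1 enriched in parental cells, with a median of 0.07 (over all genes, 9.04% were depleted in SETD2-mutant cells, and 9.90% were depleted and 1.10% enriched in parental cells). MGA, which dimerises with MAX, stood at 0.41 in SETD2-mutant cells (adjusted p = 0.41) and rose by 0.92 in parental cells (adjusted p = 0.000626). Its fall of 0.51 between the lines (adjusted p = 0.0113) did not hold without any 1 of the 4 cell samples (adjusted p between 0.0922 and 0.141), nor at a rank share limit of 0.1 (0.653). MAX itself fell by 2.28 in SETD2-mutant cells (adjusted p = 0.00329) and fell by 2.37 in parental cells (adjusted p = 0.000182), with a difference of 0.09. MXI1 stood at 0.54 (adjusted p = 0.277) and REST at 0.19 (adjusted p = 1) between the lines.

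Among the 9 other zinc-dependent deacetylases, HDAC3 was the 1 called between the lines, where 1.28% of all genes were depleted and the list's median was 0.01. In SETD2-mutant cells 1 was depleted (9.04% of all genes, median −0.08) and in parental cells 0 were called by rank aggregation (median −0.09), with 0 at an unadjusted p below 0.05 and 3 depleted by limma. HDAC3, the catalytic subunit of the NCoR and SMRT corepressors, fell by 1.79 between SETD2-mutant and parental cells (SE 0.24, 10 of 10 guides below 0, adjusted p = 9.33e-05). It fell by 2.43 in SETD2-mutant cells (adjusted p = 0.000123) and stood at −0.64 in parental cells (adjusted p = 0.864). The call between the lines held in all 18 alternatives, though the median over guides could not change it. Between the lines HDAC9 stood at 0.45 (adjusted p = 0.0915), HDAC4 at 0.41 (adjusted p = 0.506) and HDAC8 at 0.18 (adjusted p = 0.978).

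The other complexes that use HDAC1 and HDAC2 had 12 measured genes of 16 listed, of which 1 was depleted between the lines (1.28% of all genes, median 0.15) and 0 enriched, with 2 enriched at an unadjusted p below 0.05 and 5 by limma. MTA1, a NuRD subunit, fell by 0.71 between the lines (SE 0.21, adjusted p = 0.0111), a call lost without SETD2-mutant replicate 1 (adjusted p = 0.222) or parental replicate 2 (0.218), or at a rank share limit of 0.1 (0.301). RCOR1, the CoREST scaffold, stood at −0.48 (adjusted p = 0.303), CHD3 at 0.35 (adjusted p = 0.286) and GATAD2A at 0.36 (adjusted p = 0.48). Against the library, 1 of the 12 was depleted and 1 enriched in each line, with medians of −0.02 in SETD2-mutant cells and −0.10 in parental cells. Over all genes, 9.04% were depleted in SETD2-mutant cells and 9.90% in parental cells, and 1.10% were enriched in each. These were the remodeller CHD4 and the methyl-DNA binding protein MBD2, named after their values were seen. CHD4 stood at −1.03 in SETD2-mutant cells and −1.10 in parental cells, with both calls lost without either SETD2-mutant sample (adjusted p between 0.114 and 0.405). The SETD2-mutant call for CHD4 was also lost without library replicate 2 (adjusted p = 0.14) and at a rank share limit of 0.1 (1). Its parental call was also lost with parental and library samples fitted alone (0.118). MBD2 rose by 1.01 in SETD2-mutant cells (adjusted p = 0.00222) and by 0.75 in parental cells (adjusted p = 0.0286, and 0.0792 without parental replicate 2), and the parental value was −0.03 on the dummyguide guides.

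The genes most like PHF12 over the 4 cell samples, by the Euclidean distance between mean changes from the library among 7081 genes, were CSK, NPRL2, NSD1, MPV17 and EP300. CSK, a kinase that restrains SRC family kinases, was nearest at a distance of 0.34, with −0.59 and −0.83 in the SETD2-mutant samples and 0.69 and 0.71 in the parental samples. NSD1, which places dimethylation on H3K36, lay at 0.41, with −0.95 and −0.98 in the SETD2-mutant samples and 0.75 and 0.82 in the parental samples. EP300, a histone acetyltransferase, lay at 0.54. The genes most like GATAD1 were INPP4A, TP73, CDK5, KDM5C and ATF7IP, at distances from 0.23 to 0.36, and SIN3B was the 10th. From PHF12, the nearest member was HDAC1 (308th, distance 1.21), followed by SIN3B (656th, 1.31). PHF12 and GATAD1 were far from each other by this measure, since GATAD1 guides stayed above the library in SETD2-mutant cells.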

How the data were processed

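Guide abundance was measured by sequencing guides amplified from genomic DNA (75 bp single-end reads, per the labels' protocols). The authors deposited 1 table of raw read counts per guide for 6 samples; MAGeCK and hg38 are named in the submitters' processing notes, without a version or a role. Guides with a mean library count of at least 30 were kept (71470, with 56 set aside and the 100 dummyguide guides left out); 20 guide IDs were duplicated. Counts were scaled by TMM and fitted over all 6 samples with the quasi-likelihood test of edgeR 4.0.16 in R 4.3.3. Guides were ranked by signed p and combined by robust rank aggregation (rank share limit 0.25, at least 3 guides a gene, 4000000 random draws for 10 guides), with Benjamini-Hochberg adjustment over 7090 genes in each direction. The code was tested on simulated counts. DESeq2 1.42.0 and limma 3.58.1 served as alternatives.

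CPM values are per sample total. Values per sample are log2 CPM with a prior count of 2, relative to the library mean. Within a group, a chi-square of the counts of the 2 samples per degree of freedom was 12.9 for SETD2-mutant, 14.1 for parental and 1.37 for library, so the samples differed beyond sampling noise. Same-numbered samples did not deviate together (correlations from −0.01 to −0.00), so numbers were not used as pairs. Named genes were the 7 members, up to 4 genes of each list with the lowest p between the lines and then in parental cells, and the 5 nearest profiles of PHF12 and GATAD1. Members and lists were chosen with earlier results of these data known. Positions are from RefSeq (GRCh38.p14). Guide sequences were not used here.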

Additional observations from a re-analysis of the deposited data

Results flagged for a closer look

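The change of PHF12 between SETD2-mutant and parental cells, −1.51 on the log2 scale, is singled out because both SETD2-mutant samples lay below the library (−0.79 and −0.62) while both parental samples lay above it (0.71 and 0.89). The difference was not tested, since PHF12 was listed for it. On the dummyguide guides, the PHF12 change from the library was −1.62 in SETD2-mutant cells and 0.04 in parental cells. The median over its guides in SETD2-mutant cells was −0.38. For SIN3B the difference between SETD2-mutant and parental cells, −0.89, passed the edgeR and rank aggregation test of the difference itself (adjusted p = 9.33e-05). Its parental samples stood at 1.03 and 1.09, against 0.22 and 0.12 in the SETD2-mutant samples. SIN3B, like the other members, was listed with earlier results of these data known.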

How the results depend on the processing

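Of 364 recomputed member values, 341 were classed as unchanged. Of the rest, 11 newly passed the threshold, 1 no longer passed it and 3 reversed direction. The other 8, untested values of PHF12 or GATAD1, moved in size but kept their direction. The median over guides, counted among the alternatives, alters only the effect and could not change a call. Between SETD2-mutant and parental cells, the median over guides gave −1.27 for PHF12, dummyguide scaling −0.85 for GATAD1, and limma on gene means −0.46 for SIN3A, 0.31 for SAP30, −0.38 for HDAC1 and 0.33 for HDAC2, all 4 past the threshold, with 1585 depleted and 910 enriched genes; equal ribosomal protein dropout gave 120 enriched. In SETD2-mutant cells against the library, dummyguide scaling gave −1.62 for PHF12 and reversed GATAD1 (−0.40) and SIN3B (−0.75), with 35 enriched genes; the median over guides gave −0.38 for PHF12. Limma gave 0.51 for GATAD1, 0.17 for SIN3B, −0.36 for SAP30, −0.29 for HDAC1 and −0.23 for HDAC2, all past the threshold, with 2703 depleted and 1690 enriched. Leaving out 1 sample gave 48 to 83 enriched genes, lowest without SETD2-mutant replicate 1. In parental cells, dummyguide scaling gave 0.039 for PHF12 and 0.45 for GATAD1 and reversed HDAC1 (−0.68). GATAD1 was 1.20 on library totals and 1.18 by the median over guides. SIN3A at a rank share limit of 0.1 kept −2.13 with an adjusted p of 0.0723. Limma gave −0.67 for SAP30 and −0.56 for HDAC2, with 2234 depleted and 1689 enriched. The cause was not tested, except that dummyguide scaling shifts all genes alike. Of 516 recomputed values of called list genes, 462 kept their call, 51 lost it and 3 reversed with dummyguide scaling (MORF4L2 −0.21 and MBD2 −0.025 in parental cells, KDM5C −0.40 in SETD2-mutant cells). Taking the replicate number as a block gave −0.89 for SIN3B between the lines, still called, and moved no count of calls by over 1.5 times. It ended the calls of CHD4 in SETD2-mutant cells (adjusted p = 0.0605) and MORF4L2 in parental cells (0.0621), and no other call of a member or listed gene.

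With 2 samples a group that share 1 transduction per line, the spread between independent screens is unknown. The lowest member guide had 12 counts in a sample, so deep falls rest on small counts.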
